A study of Mus musculus with 12 samples.

Results

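The zinc genes described here are 10 of the 17335 genes listed in either count table of a mouse pancreatic cancer and stroma experiment: the importers Slc39a10, Slc39a6, Slc39a1, Slc39a7, Slc39a8 and Slc39a14, the exporter Slc30a1, the metallothioneins Mt1 and Mt2, and the zinc-sensing transcription factor Mtf1. The set was chosen from earlier results of these same libraries, for the low level of Slc39a10 in KPC4 cells given medium from gemcitabine-educated stellate cells. The KPC4 treatment contrast is therefore given for these genes as a description with no test. Tests are given for the PSC4 contrast and, except for Slc39a10, for the comparison of the control groups. All 10 genes passed the filter on low counts in both lines.

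Both experiments transferred culture supernatant between 2 mouse cell lines, and each had 2 groups of 3 biological replicates sequenced as bulk RNA, 12 libraries in all. KPC4 is a pancreatic adenocarcinoma line and PSC4 a pancreatic stellate line, that is, of the fibroblast-like cells that lay down the matrix of this tumour. Gemcitabine is a nucleoside analogue used as chemotherapy. The comparisons ask how stellate cells respond to medium from drug-treated tumour cells, and how tumour cells then respond to medium from those stellate cells.

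In the first experiment KPC4 donor cells received vehicle or gemcitabine at 10 µM over 6 h, were washed, and conditioned starvation medium for 14 h. PSC4 cells kept for 24 h in the vehicle medium are the Control-SU group, and those kept in the gemcitabine medium are the Gem-SU group. In the second experiment PSC4 donor cells were exposed to either medium for 6 h, washed, and conditioned fresh starvation medium for 18 h. KPC4 cells kept for 24 h in that medium are the Control-PSC-SU group or the Gem-PSC-SU group. Recipient cells of every group, controls included, thus sat in conditioned starvation medium, and the labels record no drug added to them directly. Each line is a single line, and whether it is a clone was not given in the sources used here.

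Zinc is a structural and catalytic cofactor of many proteins, and cells keep its free cytosolic level very low. Proteins of the SLC39 (ZIP) family move zinc into the cytosol, those of the SLC30 (ZnT) family move it out or into vesicles, and metallothioneins bind it through clusters of cysteines. MTF1 senses a rise in zinc, binds metal response elements in promoters and raises Mt1, Mt2 and Slc30a1, while Slc39a10 is known as a gene it represses. Metallothionein genes also respond to glucocorticoids and to inflammatory cytokines, and Slc39a14 is induced by interleukin 6 in liver.

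The metal response element is shown first because it links the exporter and the metallothioneins. Its core was searched as TGCACNC and TGCGCNC on both strands, which differ at 1 base so that no stretch matches both on one strand, although matches on opposite strands can share bases, in RefSeq windows of 250 bases before to 50 bases after each annotated start (assembly GRCm38.p6). Windows on 1 chromosome were left out for these 10 genes, but not for the shares over all genes given below. Windows were found for 8 of the 10 genes, and 4 of these 8 genes held at least 1 match. None was found for Slc39a6 and Slc39a14, and whether they have one on the chromosome left out was not checked. Of all 27025 genes in that table, 28.2% held at least 1 match in any window. Of all 32851 windows, 25.7% held at least 1 match and 1.97% held 3 or more. The bases before the start of Mt2 (chr8:94172368-94172617, plus strand) carry 3 matches, in capitals, at positions -223, -128 and -50 from the start, the last on the opposite strand.

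Mt2 upstream: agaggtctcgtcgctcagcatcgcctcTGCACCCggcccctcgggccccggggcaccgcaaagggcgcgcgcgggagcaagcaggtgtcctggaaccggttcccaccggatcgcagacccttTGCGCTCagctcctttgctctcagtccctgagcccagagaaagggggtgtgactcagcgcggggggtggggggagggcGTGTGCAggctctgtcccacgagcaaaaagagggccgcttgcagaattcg

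Another match in the Mt2 window lay at position 5 after the start. The windows of Mt1 (start at 94179089 on chromosome 8, plus strand) and Slc30a1 (start at 191906781 on chromosome 1, plus strand) held 3 and 2 matches, printed here with their flanking bases, and each line gives the position of the match from the start.
Mt1 at -23: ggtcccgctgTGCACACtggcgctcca
Mt1 at 3: cagggagctcTGCACTCcgcccgaaaa
Mt1 at 21: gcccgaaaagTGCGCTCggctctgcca
Slc30a1 at -43, opposite strand: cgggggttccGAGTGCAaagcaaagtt
Slc30a1 at 31, opposite strand: cctccgggccGAGCGCAgtcgccgcgg
One of the 2 starts of Slc39a8 had a single match. No match was found in the windows of either Slc39a10 start, nor in those of Slc39a1, Slc39a7 and Mtf1, which says only that these letters are not in these windows.

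The deposited values were estimated counts per gene, 26354328 to 38138356 per library. They are given below as CPM, counts scaled to a common library total,, scaled within each line by the trimmed mean of M values (TMM), and fold changes and tests come from the quasi-likelihood test of edgeR, the p-values adjusted by Benjamini-Hochberg over all genes of that comparison, called at an adjusted p under 0.05. The tests set the difference between groups against the spread of libraries within groups of 3, estimated with information shared across genes. In bulk RNA fewer expressing cells and less RNA per cell cannot be told apart. The KPC4 libraries held all 7 epithelial markers at a summed 5959 to 7418 CPM. In KPC4 controls Krt8, Krt19, Krt18, Cdh1 and Krt7 averaged 179 to 2835 CPM, against 8.89 CPM for Epcam and 1.27 CPM for Cldn4. The PSC4 libraries held all 8 fibroblast or stellate markers at 6070 to 7366 CPM under Control-SU and 1915 to 2943 CPM under Gem-SU. Of the epithelial list, Epcam, Cdh1 and Cldn4 were not listed in the PSC4 table, and the other 4 summed to 3.51 to 6.00 CPM under Control-SU and 10.2 to 14.8 CPM under Gem-SU. In KPC4, 5 of the 8 fibroblast markers were listed and summed to 16.8 to 33.0 CPM, and immune and endothelial markers summed to no more than 4.93 CPM in any library and acinar markers to no more than 15.8 CPM. Root mean square log2 distances to a library's own group were 0.715 to 0.835 in Gem-PSC-SU and 0.590 to 0.705 in Gem-SU. Among controls they were 0.605 to 0.730 in KPC4 and 0.647 to 0.797 in PSC4. In KPC4, Control-PSC-SU replicate 2 stood at 5.32 on the first principal component against 50.3 and 40.9 for the other controls. Gem-PSC-SU replicate 1 was nearer the control group (root mean square log2 distance 0.722) than its own group (0.830).

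In PSC4 stellate cells Gem-SU changed 6 of the 10 zinc genes. The importers Slc39a10 and Slc39a1 fell, by 3.10-fold and 2.03-fold, while the exporter Slc30a1 rose 2.55-fold, the importers Slc39a14 and Slc39a6 rose 1.91-fold and 1.47-fold, and the sensor Mtf1 rose 1.45-fold. The medium changed the stellate transcriptome broadly: 46.3% of 13347 genes tested were called, 3241 higher and 2936 lower, so 6 of 10 is close to the share among all genes. Without Gem-SU replicate 2 the count over all genes was 4061 in place of 6177. The members' median log2 fold change was 0.26, against -0.00 over all genes tested. The groups did not overlap for 6 of the 10 genes, against 56.4% of all genes tested.

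Slc39a10 encodes ZIP10, a plasma membrane zinc importer that forms a complex with ZIP6. In PSC4 it stood at 62.9, 73.8 and 65.0 CPM in Control-SU replicates 1, 2 and 3, and at 21.4, 19.7 and 24.1 CPM in the Gem-SU replicates. Every Gem-SU library lay far below every control, with narrow spread in both groups (67.2 ± 5.75 and 21.7 ± 2.22 CPM, SD, n = 3). The fall was -1.63 on the log2 scale (SE 0.15, 95% interval -1.98 to -1.28, adjusted p = 0.000133, edgeR), and 4.41% of all genes tested had a lower value. It was called in all 11 alternative analyses.

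Slc39a6 encodes ZIP6, the partner of ZIP10. It was measured at 89.0, 92.0 and 90.3 CPM under Control-SU and at 118, 138 and 143 CPM under Gem-SU. The groups were apart, in the opposite direction to Slc39a10, with a log2 fold change of 0.56 (SE 0.13, adjusted p = 0.00927, edgeR). The call depended on single libraries: the edgeR adjusted p was 0.0573 without Control-SU replicate 3 and 0.05003, just above the threshold, without Gem-SU replicate 2.

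Slc39a1 encodes ZIP1, a widely expressed plasma membrane importer. Its control values of 256, 235 and 273 CPM fell to 127, 132 and 117 CPM under Gem-SU. The groups were far apart relative to their spread, and the log2 fold change was -1.02 (SE 0.14, adjusted p = 0.000690, edgeR), called in all 11 alternatives.

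Slc39a14 encodes ZIP14, which carries zinc, manganese and iron that is not bound to transferrin. It stood at 45.1, 55.3 and 59.2 CPM under Control-SU and at 92.3, 122 and 89.7 CPM under Gem-SU. Gem-SU libraries were all above the controls, Gem-SU replicate 2 the highest, and the log2 fold change was 0.93 (SE 0.18, adjusted p = 0.00317, edgeR), called in all 11 alternatives.

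Slc39a7 and Slc39a8 did not pass the test. Slc39a7, which encodes the ZIP7 channel that releases zinc from the endoplasmic reticulum, ranged from 121 to 233 CPM under Control-SU and from 137 to 229 CPM under Gem-SU. Its log2 fold change was -0.02 with a 95% interval of -0.64 to 0.60 (edgeR adjusted p = 0.961). Slc39a8, which encodes ZIP8, an importer of zinc and manganese closely related to ZIP14, ranged from 18.6 to 22.8 CPM and from 19.3 to 22.5 CPM, with a log2 fold change of 0.08 and a 95% interval of -0.31 to 0.46 (edgeR adjusted p = 0.736). The groups overlapped for both genes, and the interval for Slc39a8 does not reach the size of the Slc39a14 change.

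Slc30a1 encodes ZnT1, the zinc exporter of the plasma membrane. It was at 8.58, 8.43 and 6.89 CPM under Control-SU, from 212 to 296 counts per library, and at 21.8, 18.4 and 20.7 CPM under Gem-SU. The groups were separate, with a log2 fold change of 1.35 (SE 0.19, adjusted p = 0.000720, edgeR). When all 12 libraries were fitted together, the edgeR adjusted p became 0.0885. The spread of this gene was wide in KPC4, and its part in that value was not tested. Slc30a1 was called in the other 10 alternatives.

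The metallothioneins gave no call in PSC4. Mt1 stood at 59.7, 64.0 and 33.7 CPM in the Control-SU replicates and at 53.9, 20.9 and 15.5 CPM in the Gem-SU replicates, so that Gem-SU replicate 1 sat among the controls and the other 2 below them. The log2 fold change was -0.80 (SE 0.45, 95% interval -1.82 to 0.22, edgeR adjusted p = 0.173). Without Gem-SU replicate 1 it was -1.52 with an edgeR adjusted p of 0.00258.

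Mt2 was at 12.8, 15.2 and 9.36 CPM under Control-SU and at 27.5, 11.96 and 11.5 CPM under Gem-SU. Again replicate 1 was the high Gem-SU library and the other 2 lay within the control range. The log2 fold change of 0.45 (SE 0.36, 95% interval -0.37 to 1.27, edgeR adjusted p = 0.337) became -0.09 without that library. Mt1 and Mt2 are related neighbouring genes, and how reads that match both were shared out was not given in the sources used here.

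Mtf1 was at 23.2, 24.1 and 27.2 CPM under Control-SU and at 28.9, 37.2 and 42.0 CPM under Gem-SU, with no overlap. The log2 fold change was 0.54 (SE 0.18, adjusted p = 0.0387, edgeR). This was the least secure of the 6 calls: it held in 5 of 11 alternatives, and was lost without any one Control-SU replicate, without Gem-SU replicate 2 or 3, and in the fit over 12 libraries, with edgeR adjusted p-values up to 0.137. In the authors' deposited table its log2 fold change was 0.34 with an adjusted p of 0.170. The fibroblast marker sum was lower and the sum of the 4 listed epithelial markers higher in the same Gem-SU libraries, as given above. Of the fibroblast markers, Acta2 (means of 15.7 and 26.9 CPM) and Des (2.84 and 3.36 CPM) were higher under Gem-SU with overlapping groups. The other fibroblast markers had lower means. The part of these markers in the zinc gene changes was not tested.

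**Figure D1:**
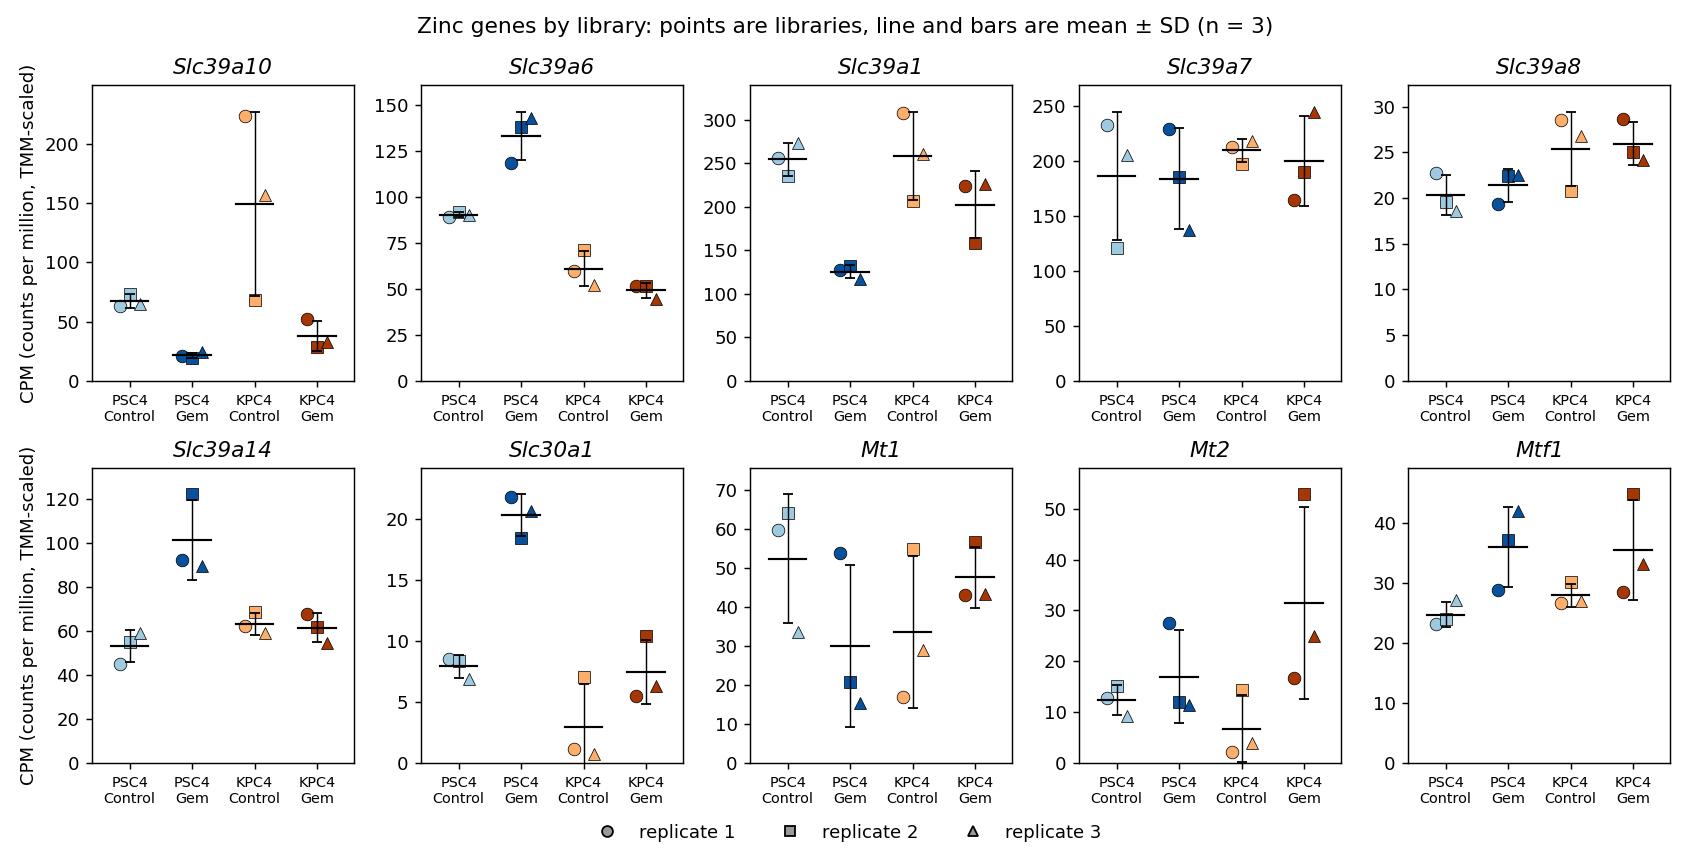
CPM (vertical axis, TMM-scaled, starting at 0) of the 10 zinc genes in the 4 groups; points are libraries with the replicate number as the symbol, and lines and bars are mean and SD (n = 3). Slc39a10 is low in every Gem library of both lines, whereas Slc39a6 is high in PSC4 Gem-SU (118 to 143 CPM) and low in KPC4 Gem-PSC-SU (44.3 to 51.8 CPM).

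In KPC4 tumour cells the contrast that led to the choice of these genes is described without a test. The SEs printed for it come from the fit to these same values, so no test is to be read from them. Slc39a10 was 3.94-fold lower and Mt2 4.60-fold higher under Gem-PSC-SU, Slc30a1 was 2.47-fold higher, and the other 7 genes differed by less than 1.5-fold. Over all 13236 genes tested, edgeR's quasi-likelihood test called none (0%), with 2251 at an unadjusted p under 0.05, and DESeq2 called 822. Leaving out Gem-PSC-SU replicate 1 gave 1129 edgeR calls, and leaving out Control-PSC-SU replicate 2 gave 174. Under a replicate block, used because same-numbered KPC4 libraries deviated together, edgeR called 8.85% of genes. The groups did not overlap for 3 of 10 members, Slc39a10, Slc39a6 and Mt2, against 22.8% of all genes tested. Nothing is read from that count, since the members were chosen on this contrast.

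Slc39a10 in KPC4 stood at 223, 68.6 and 157 CPM in Control-PSC-SU replicates 1, 2 and 3 and at 52.6, 28.6 and 32.6 CPM in the Gem-PSC-SU replicates. The controls were spread widely, replicate 2 lying nearest the treated libraries, yet the groups did not overlap. The log2 fold change was -1.98 (SE 0.42), and -1.87 (SE 0.21) with the block. Leaving out Control-PSC-SU replicate 2 gave -2.31, and leaving out its replicate 1 gave -1.57.

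The other importers moved little in KPC4. Slc39a6 was at 59.8, 71.2 and 52.3 CPM in the controls and at 51.5, 51.8 and 44.3 CPM under Gem-PSC-SU, all treated libraries lying below all controls (log2 fold change -0.31, SE 0.19). Slc39a1 was at 308, 207 and 261 CPM against 223, 158 and 226 CPM, overlapping groups with each treated library below the control of its own number (log2 fold change -0.35, SE 0.21). Slc39a7, Slc39a8 and Slc39a14 had log2 fold changes of -0.07, 0.03 and -0.04 (SE 0.19, 0.20 and 0.17), and their groups overlapped.

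Slc30a1 was sparse in KPC4 controls, at 1.15, 7.08 and 0.804 CPM in replicates 1, 2 and 3 (24 to 239 counts), and at 5.56, 10.4 and 6.37 CPM under Gem-PSC-SU. The control of replicate 2 lay within the treated range, so the groups overlapped, although each treated library was above the control of its own number. The log2 fold change was 1.30 (SE 0.74), 1.85 (SE 0.47) with the block. Leaving out the control of replicate 2 gave 2.93, and leaving out that of replicate 3 gave 0.85.

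Mt2 stood at 2.22, 14.3 and 3.95 CPM in the KPC4 controls and at 16.7, 52.8 and 25.0 CPM under Gem-PSC-SU. All treated libraries were above all controls, replicate 2 being the highest library of each group. The log2 fold change was 2.20 (SE 0.68), 2.46 (SE 0.24) with the block, 3.36 with Control-PSC-SU replicate 2 left out and 1.61 with Gem-PSC-SU replicate 2 left out.

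Mt1 was at 16.9, 54.9 and 29.1 CPM in the controls and at 43.1, 56.6 and 43.3 CPM under Gem-PSC-SU. Control-PSC-SU replicate 2 again fell within the treated range, and the log2 fold change of 0.50 (SE 0.38) became 1.06 without that library and 0.18 when the control of replicate 1 was left out. Mtf1 was at 26.8, 30.2 and 27.1 CPM against 28.6, 44.8 and 33.2 CPM, a log2 fold change of 0.34 (SE 0.22) with overlapping groups. The control library with the lowest Slc39a10 was thus the one with the highest Slc30a1, Mt1 and Mt2 among controls. It is also the control that stood apart on the first principal component, and the part of that difference in these values was not tested.

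**Figure D2:**
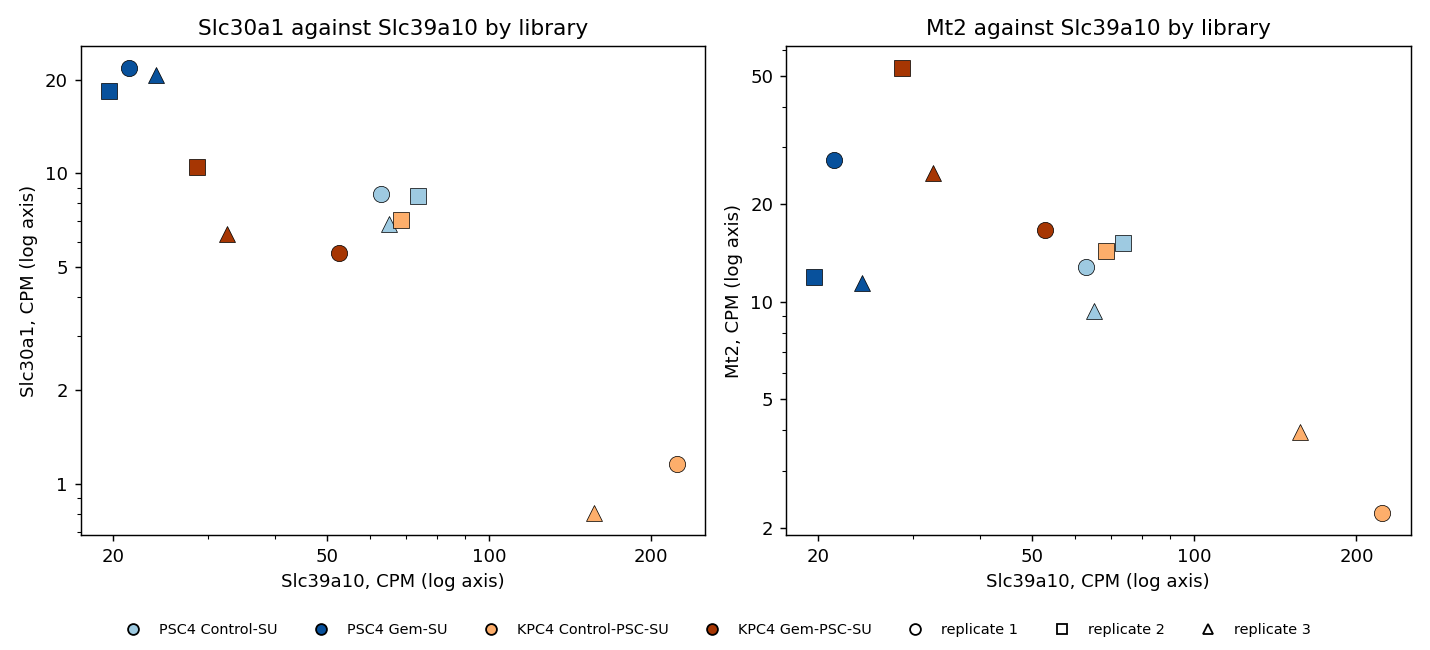
Slc30a1 (left) and Mt2 (right) against Slc39a10, both axes in CPM on log scales, one point per library, colour for the group and symbol for the replicate. KPC4 Control-PSC-SU replicates 1 and 3 sit at high Slc39a10 (223 and 157 CPM) with low Slc30a1 and Mt2, while replicate 2 of that group lies beside the PSC4 controls.

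Set side by side, Slc39a10 was lower and Slc30a1 higher in both lines, with log2 fold changes of -1.63 and 1.35 in PSC4 and -1.98 and 1.30 in KPC4. Mt2 was 0.45 in PSC4 and 2.20 in KPC4, and Mt1 was -0.80 and 0.50. Slc39a14 was 0.93 in PSC4 and -0.04 in KPC4, and Slc39a6 was 0.56 and -0.31. The differences between lines were not tested, because they contain the contrast on which the genes were chosen.

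**Figure D3:**
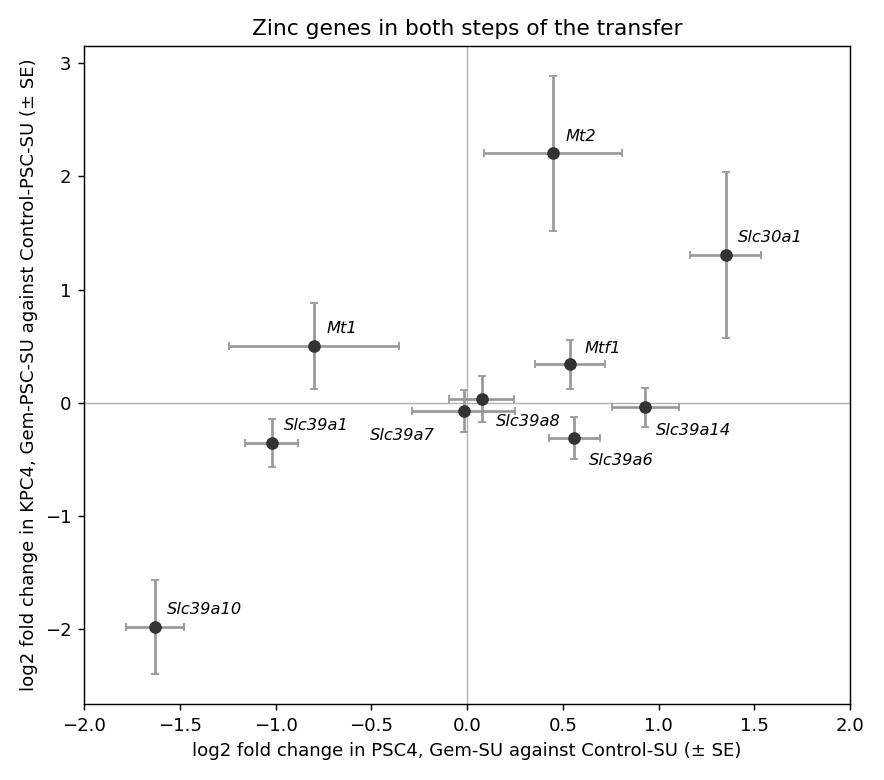
Log2 fold change with SE of the 10 zinc genes in PSC4 (horizontal, Gem-SU against Control-SU) and KPC4 (vertical, Gem-PSC-SU against Control-PSC-SU). Slc39a10 is at the lower left (-1.63 and -1.98), Slc30a1 at the right (1.35 and 1.30), and Mt2 at the top with the wider bars of KPC4.

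Across the 4 groups, the order of mean Slc39a10 levels ran from PSC4 Gem-SU (21.7 CPM) through KPC4 Gem-PSC-SU (37.95 CPM) and PSC4 Control-SU (67.2 CPM) to KPC4 Control-PSC-SU (149.6 CPM). The last 2 neighbours overlapped and the other neighbours did not. Slc39a1 had the same order of groups with the same overlap. For Slc39a6 no neighbours overlapped, from KPC4 Gem-PSC-SU (49.2 CPM) and KPC4 Control-PSC-SU (61.1 CPM) to PSC4 Control-SU (90.4 CPM) and PSC4 Gem-SU (133.3 CPM). Slc30a1 and Slc39a14 were highest in PSC4 Gem-SU (20.3 and 101.4 CPM), apart from the next group in both cases, and their other neighbours overlapped. Neighbouring groups overlapped throughout for Slc39a7, Slc39a8, Mt1, Mt2 and Mtf1.

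Between the control groups, Slc39a6 was lower in KPC4 than in PSC4, with a log2 difference of -0.56 (SE 0.16, adjusted p = 0.0113, edgeR over 12 libraries). It was the only one of the 9 members tested to be called, against 42.9% of 13632 genes. The call was lost when PSC4 Control-SU replicate 3 or KPC4 Control-PSC-SU replicate 1 or 3 was left out, with edgeR adjusted p-values up to 0.0656. Slc30a1 was -1.38 (95% interval -2.66 to -0.10, edgeR adjusted p = 0.0762), and without Control-PSC-SU replicate 2 it was -3.01 with an edgeR adjusted p of 1.52e-05, whereas without Control-PSC-SU replicate 3 it was -0.93 with 0.206. Mt2 went from -0.85 (edgeR adjusted p = 0.279) to -2.01 (edgeR adjusted p = 0.00909) when Control-PSC-SU replicate 2 was left out, and to -0.37 (edgeR adjusted p = 0.662) when replicate 1 of that group was. Slc39a10 was 1.16 higher in KPC4 (SE 0.34), given without a test. Line, conditioned medium and count table cannot be told apart in this comparison. Its KPC4 control libraries also belong to the contrast on which the genes were chosen, so these p-values are not independent of that choice.

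Of 20 further genes of zinc transport and metallothioneins, 10 passed the count filter in PSC4, with a median log2 fold change of -0.36. Under Gem-SU, 2 of the 10 were called higher and 4 called lower, against 46.3% called over all genes. The 4 that fell were Slc39a3 (-1.002, edgeR adjusted p = 0.0435), an importer at the plasma membrane, Slc39a13 (-0.69, 0.0260), which encodes ZIP13 and is needed for collagen-producing connective tissue, and the vesicle and Golgi transporters Slc30a7 (-0.64, 0.0102) and Slc30a4 (-0.47, 0.0302). Slc30a9 rose by 0.40 (edgeR adjusted p = 0.0281). Slc39a4, which encodes the intestinal importer ZIP4, rose by 2.27 (edgeR adjusted p = 0.0272) but from 1 to 6 counts per library to 16 to 24. Slc39a4 averaged 178 CPM in KPC4 controls against 0.569 CPM in PSC4 Gem-SU. Of the 4 listed epithelial markers, Krt19 (means of 2.95 and 7.64 CPM) was higher under Gem-SU in PSC4 with no overlap. Krt7 (1.51 and 3.26 CPM) had a higher mean there with overlapping groups. Krt8 (0.517 and 0.655 CPM) and Krt18 (0.182 and 0.212 CPM) stayed near their control values. The part of these markers in the Slc39a4 value was not tested. These calls were fragile: none of the 6 was called without Gem-SU replicate 2, and 2 genes of this list were called without Control-SU replicate 1, without Control-SU replicate 3 or without Gem-SU replicate 3. In the authors' deposited table Slc39a4 (0.0952) and Slc30a9 (0.0724) had adjusted p-values above 0.05, and Slc30a7 had a log2 fold change of 0.15 (adjusted p 0.815), of the other sign. In KPC4, 14 of the 20 were tested, with a median of -0.07 and no call with or without the block.

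Genes of iron, copper and other metals were tested for 17 of 17 in PSC4. Of these, 4 were called higher and 3 called lower, with a median log2 fold change of 0.26. That share of calls was no higher than the 46.3% over all genes. Among iron genes, Tfrc, the transferrin receptor, went from 74.2 ± 4.14 to 308.6 ± 69.0 CPM (SD, n = 3), a log2 fold change of 2.06 (edgeR adjusted p = 0.000137). The iron exporter Slc40a1, ferroportin, fell by 2.24 (edgeR adjusted p = 0.00379) from 3.66 ± 1.43 to 0.769 ± 0.257 CPM. Fth1, the ferritin heavy chain that stores iron, fell by 1.09 (edgeR adjusted p = 0.0191), and Ncoa4, which carries ferritin to lysosomes, rose by 0.61 (edgeR adjusted p = 0.0101). Of the copper genes, the vesicle transporter Slc31a2 rose by 1.15 (edgeR adjusted p = 0.00262) and the copper pump Atp7a by 1.08 (edgeR adjusted p = 0.0267). Tfrc, Slc40a1, Ncoa4 and Slc31a2 were called in all 11 alternatives. Fth1 was not called without Gem-SU replicate 2 or 3 (highest edgeR adjusted p 0.0843), and Atp7a was not called without Control-SU replicate 1 or 3 or Gem-SU replicate 2 or 3 (highest 0.0938). In KPC4 the median was -0.16, with no gene called, and 1 called lower with the block (8.85% of all genes).

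Genes of cytokine and STAT3 signalling, a second known input to metallothioneins and Slc39a14, were tested for 12 of 12 in PSC4. Of these, 2 were called higher and 8 called lower, with a median of -1.08. Over all genes 46.3% were called and the median was -0.00. Changes and medians in this paragraph are log2 fold changes. Il6, the cytokine itself, rose by 4.11 (edgeR adjusted p = 0.000482) from 3 to 9 counts per library to 95 to 117, and Junb, an immediate early transcription factor, rose by 3.40 (edgeR adjusted p = 3.24e-05). The shared receptor chain Il6st fell by 1.38 (edgeR adjusted p = 0.00109) and the feedback inhibitor Socs3 fell by 1.59 (edgeR adjusted p = 0.000632). The acute phase genes Saa3 and Lcn2 fell by 2.28 and 2.11 (edgeR adjusted p = 0.0135 and 0.0493), with Saa3 lost without Gem-SU replicate 2 (0.0583) and Lcn2 called in 5 of 11 alternatives (highest 0.174). The part of any of these genes in the Slc39a14 value was not tested. In KPC4, 10 of the 12 genes were tested, with a median of 0.57, no call, and 2 called higher with the block (8.85% of all genes).

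Of 7 glucocorticoid-responsive genes tested in PSC4, 2 were called higher and 2 called lower, with a median of -0.07, against 46.3% called over all genes. These medians and the changes below are log2 fold changes. Dusp1, a phosphatase gene that many stimuli induce, rose by 2.29 (edgeR adjusted p = 6.55e-05) and Fkbp5 rose by 0.58 (edgeR adjusted p = 0.0152). Tsc22d3, which encodes GILZ, fell by 1.07 (edgeR adjusted p = 0.00343) and Klf9 fell by 0.71 (edgeR adjusted p = 0.00252). Fkbp5 was not called in the fit over 12 libraries or without Control-SU replicate 2 or 3 or Gem-SU replicate 2 (highest edgeR adjusted p 0.0821). In KPC4 all 7 genes tested were higher in the treated group, with a median of 0.52 against -0.02 over all genes, no call without the block and 3 with it, against 8.85% of all genes with it.

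**Figure D4:**
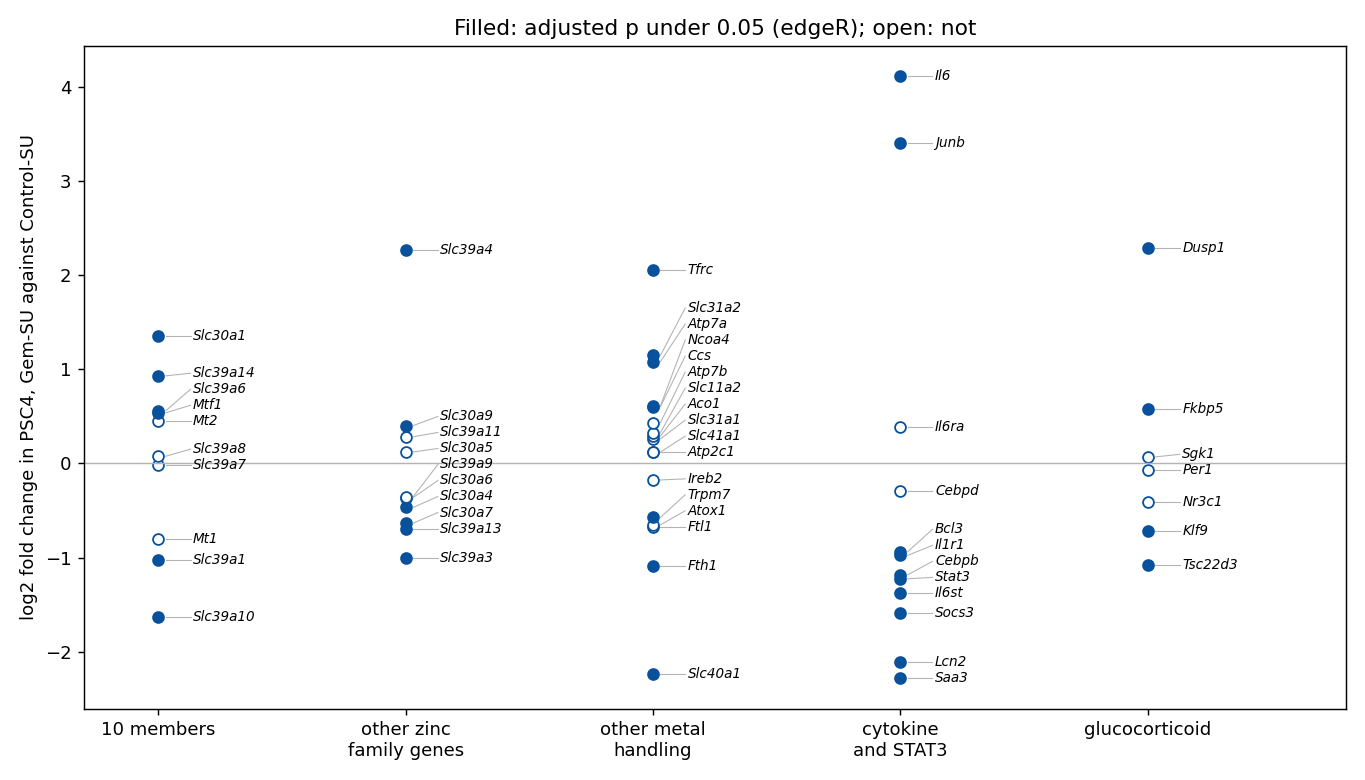
Log2 fold change in PSC4 (Gem-SU against Control-SU) of the 10 zinc genes and of each tested gene of the 4 related lists, filled where edgeR's adjusted p was under 0.05. Calls lie on both sides of 0 in every list, from Il6 (4.11) and Junb (3.40) down to Saa3 (-2.28) and Slc40a1 (-2.24).

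Genes whose pattern was most like that of Slc39a10 over the 12 libraries, after each line's mean was subtracted from log2 CPM, were Atxn10 (Pearson r 0.969), Sema5a (0.961), Ttc28 (0.949), Tcp11l2 (0.949) and Spg20 (0.943), of 9351 genes compared. All 5 were lower under Gem medium in both lines, with log2 fold changes of -0.51 and -0.67 for Atxn10 and -0.88 and -0.92 for Tcp11l2 in PSC4 and KPC4, smaller than those of Slc39a10. The points share their libraries and the treatment shift, so these coefficients are a description with no test. For Mt1 the most similar were Isca1 (0.945), Uxs1 (0.922), Tspan5 (0.917), Lmnb1 (0.898) and Haus4 (0.895). All 5 had the signs of Mt1 in both lines, which picking them by correlation over these same libraries makes likely. Haus4, a subunit of the augmin complex of the mitotic spindle, was -0.83 in PSC4 and 0.56 in KPC4, and Lmnb1, which encodes lamin B1, was -0.73 and 0.76.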

How the data were processed

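Bulk RNA-seq of 12 libraries in 4 groups of 3 was analysed from the deposited tables of estimated counts, whole numbers, 1 table per line. The submitters' processing notes name FastQC, Trim Galore 0.6.10, cutadapt 5.2, Salmon, R 4.5.1, DESeq2 and build GRCm39 without their roles, and the annotation and strand setting are not given in the sources used here. The authors' deposited table of log2 fold changes and adjusted p-values was used only where named. Gene IDs were matched to symbols for 16329 of 16386 genes in PSC4 and 15265 of 15309 in KPC4. Promoter windows come from RefSeq on GRCm38.p6, and no coordinate was converted.

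Genes were filtered with filterByExpr, scaled by TMM and tested within each line with edgeR 4.0.16 (robust quasi-likelihood, R 4.3.3), and between control groups in 1 fit over 12 libraries. The scripts were tested on simulated counts. Alternatives were DESeq2 1.42.0, its size factors, no filter, 1 fit over 12 libraries, a replicate block and leaving out each library. Same-numbered libraries deviated together in KPC4 (correlations 0.351, 0.436 and 0.211), so its numbers were taken to pair the samples, a pairing that comes from the values, as the labels give replicate numbers only. In PSC4 the correlations were 0.428, -0.0548 and 0.102, and its numbers were not taken to pair. Libraries of unlike numbers were not compared for reference.

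Members and lists were chosen with earlier results of these data known. Named genes are the 10 members, per list the called genes in PSC4 (at most 6, by size of change), and the 5 genes most like Slc39a10 and Mt1 by Pearson correlation, with a mean of at least 5 CPM in both lines. Lmnb1, Haus4, Atxn10 and Tcp11l2 were picked from these 5 for their values after seeing them, as were the epithelial and fibroblast markers named singly.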

Additional observations from a re-analysis of the deposited data

Results flagged for a closer look

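Slc39a6, which encodes the ZIP6 importer, had log2 fold changes of opposite sign in the 2 lines. In PSC4 every Gem-SU library was above every control (0.56), and in KPC4 every Gem-PSC-SU library was below every control (-0.31, SE 0.19). The KPC4 value was -0.17 without Control-PSC-SU replicate 2, and groups that did not overlap made up 22.8% of all genes tested there. The difference between the lines was not tested, and the PSC4 call was lost when Control-SU replicate 3 or Gem-SU replicate 2 was left out.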

How the results depend on the processing

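In PSC4 the number of genes called, 6177, was 4061 without Gem-SU replicate 2 and ranged from 4061 to 6826 over the libraries left out in turn. The members called there numbered 6 and ranged from 4 to 7 over 11 alternatives. In KPC4 the count of 0 became 1171 with the replicate block, 822 with DESeq2 and 610 in the fit over 12 libraries, and with 1 library left out it ranged from 0 to 1129, the highest when Gem-PSC-SU replicate 1 was dropped (174 when it was Control-PSC-SU replicate 2). In PSC4, where same-numbered libraries did not all deviate together (correlations 0.428, -0.0548 and 0.102), the replicate block gave 7266 genes and brought Mt1 past the threshold (-0.96, edgeR adjusted p = 0.0139). Between controls the replicate block gave 5973 genes, and members called, 1, became 2 with the block, which added Slc30a1 (-1.75, edgeR adjusted p = 0.0202) but joins libraries of different lines that share only a number, and ranged from 0 to 3 with 1 control left out. Small changes turned sign: in PSC4 Slc39a7 was 0.00387 with the replicate block and ranged from -0.28 to 0.17 with 1 library left out, Slc39a8 from -0.0211 to 0.17 and Mt2 from -0.0872 to 0.67, in KPC4, with no test, Slc39a7 ranged from -0.24 to 0.05, Slc39a8 from -0.08 to 0.12 and Slc39a14 from -0.12 to 0.04, and between controls Slc39a7 ranged from -0.000493 to 0.37 and Slc39a1 from -0.0509 to 0.16. The list counts, an alternative added after seeing the data, ranged over libraries left out from 0 to 5 for the zinc family, 4 to 8 for metal handling and 6 to 10 for cytokine and STAT3 genes. The causes of these shifts were not tested. Low counts limit the precision of Slc30a1 in KPC4 controls (24 to 239 per library) and of Slc39a4, Il6, Lcn2 and Slc40a1 in PSC4.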

Other observations

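The authors' deposited table and the fold changes computed from the counts differed by a median of 0.0616 on the log2 scale over 12340 PSC4 genes, and 525 of these (4.25%) differed by more than 0.5. Slc30a7, a zinc transporter of the Golgi, had the largest difference among the members and the other zinc transport genes tested, in both lines: -0.64 from the counts and 0.15 in the authors' deposited table in PSC4, and -0.33 and 0.57 in KPC4. For Slc39a10 the values were -1.63 from the counts and -1.81 in the authors' deposited table in PSC4, and for Slc30a1 1.35 and 1.41.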
